A study of Mus musculus with 4 samples.

Results

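Within the CD8+ T cells of MB49 tumours, cells were examined that carried transcripts of both Itgae and Ifitm1 while showing little Gzma and no Foxp3. The members were chosen by their own UMI counts (unique molecular identifiers). A barcode needed 1000 or more UMIs, 500 or more genes and no more than 10% of UMIs from mitochondrial genes. It also needed at least 1 UMI over the CD3 genes (Cd3d, Cd3e, Cd3g), at least 1 over the CD8 genes (Cd8a, Cd8b1), at least 1 of Itgae and at least 1 of Ifitm1, with under 2 of Gzma and 0 of Foxp3. The cells were selected on these values, so the levels of the genes concerned are a description without a test, as are those of Ifitm2 and Itgb1, which were given as markers of the set. The set held 2266 of the 35174 CD3 and CD8 positive barcodes, called the gated cells here. All other CD3 and CD8 positive barcodes of the same library are called the other cells.

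MB49 is a mouse bladder carcinoma line, and each of the 4 droplet libraries held sorted CD45+ CD8+ cells pooled from 3 mice. For WT and KO, tumours grew under the skin of C57BL/6Slac mice aged 10 to 12 weeks, wild type or, by their label, BFAR-CD8-KO, with CD8+ T cells given there as BFAR-deficient. For Young and Aged, they grew in Rag1-deficient hosts aged 8 to 10 weeks, labelled B6.129S7-Rag1tm0Mom/J for Young and B6.129S7-Rag1tm1Mom/J for Aged, which lack mature lymphocytes of their own. On the day of inoculation each host was given, through a vein, CD8+ T cells from donors of 8 weeks for Young and 18 months for Aged. The 2 pairs were made with different library kits, so no level of 1 pair was tested against that of the other. Statements that values overlap or do not overlap across libraries set both kits side by side and are a description only. The share of all genes that would not overlap is not given here. Each group was 1 library: gated and other cells were tested over the 4 libraries, while KO against WT and Aged against Young have no replicate check and no test. What drives the deletion was not stated in the labels.

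Itgae encodes integrin alpha E (CD103), which pairs with the beta 7 chain to bind E-cadherin and is a classical marker of CD8 T cells that stay in epithelial tissues and tumours. TGF-beta raises Itgae, and resident cells typically lose the egress receptor S1PR1 and the factor KLF2 that drives it. Ifitm1, Ifitm2 and Ifitm3 encode small interferon-inducible membrane proteins that restrict virus entry.

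The 3 Ifitm genes are neighbours on chromosome 7. In GRCm38, Ifitm2 lies at chr7:140954837-140955987 (minus strand), Ifitm1 at chr7:140967221-140969825 (plus strand) and Ifitm3 at chr7:141009586-141010770 (minus strand). Itgae lies apart at chr11:73090583-73147446 (plus strand). Sequence next to the RefSeq starts (GRCm38.p6) is shown for the 3 neighbours because their transcripts were high together in the gated cells. It runs 5′ to 3′ on the strand of each gene, and capitals mark the interferon response motif GAAANNGAAA, searched on both strands. For Ifitm1 and Ifitm2 the 100 bases before the start are shown (chr7:140967976-140968075 and chr7:140955962-140956061), and for Ifitm3 the 30 bases that hold its motifs (chr7:141010714-141010743).
Ifitm1: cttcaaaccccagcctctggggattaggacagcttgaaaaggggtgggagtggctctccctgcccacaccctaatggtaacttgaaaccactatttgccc
Ifitm2: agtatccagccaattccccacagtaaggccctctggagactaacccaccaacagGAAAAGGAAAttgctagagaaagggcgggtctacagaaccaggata
Ifitm3: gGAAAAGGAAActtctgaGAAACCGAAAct
In the window from 250 bases before to 50 bases after the start, the motif occurred 0 times for Ifitm1, 1 time for Ifitm2 and 2 times for Ifitm3. Of all 32851 such windows, 1131 held it (3.44%). A match describes the letters only. The RefSeq start of Ifitm1 lies inside the gene span given above, downstream of its first base. The count of 0 covers this start only, and bases before chr7:140967221 were not searched.

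Gated cells made up 840 of 8966 CD3 and CD8 positive cells in WT, a share of 9.37% (8.77 to 9.99) with its exact binomial 95% interval. In KO they made up 1079 of 8153, or 13.2% (12.5 to 14.0). In Young they were 303 of 9803, or 3.09% (2.76 to 3.45), and in Aged 44 of 8252, or 0.533% (0.388 to 0.715). The KO share was above the WT share and the Aged share below the Young share beyond counting error, the only error these intervals cover. Detection rises with depth, so every cell was also thinned to 2000 UMIs before the gate. This left out 120, 76, 843 and 415 shallower barcodes that had passed the filters, in the order WT, KO, Young, Aged. The CD3 and CD8 conditions were applied to the thinned counts too, which left 7922, 7108, 8507 and 7560 CD3 and CD8 positive cells. The shares then were 4.0% (3.58 to 4.46) in WT, 6.05% (5.51 to 6.63) in KO, 1.40% (1.16 to 1.67) in Young and 0.146% (0.0727 to 0.260) in Aged. Both orders held. The next shares are unthinned and leave out the condition on Ifitm1. They were 22.9% (22 to 23.8) in WT and 23.1% (22.2 to 24.1) in KO, whose intervals overlap. In Young they were 6.60% (6.12 to 7.11) and in Aged 1.99% (1.70 to 2.31), so Aged stayed below Young. Thinned Itgae detection was 12.2% of CD3 and CD8 positive cells in WT and 13.4% in KO. Thinned Ifitm1 detection was 21.9% of CD3 and CD8 positive cells in WT and 33.7% in KO, and 17.9% in Young and 6.51% in Aged.

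**Figure D1:**
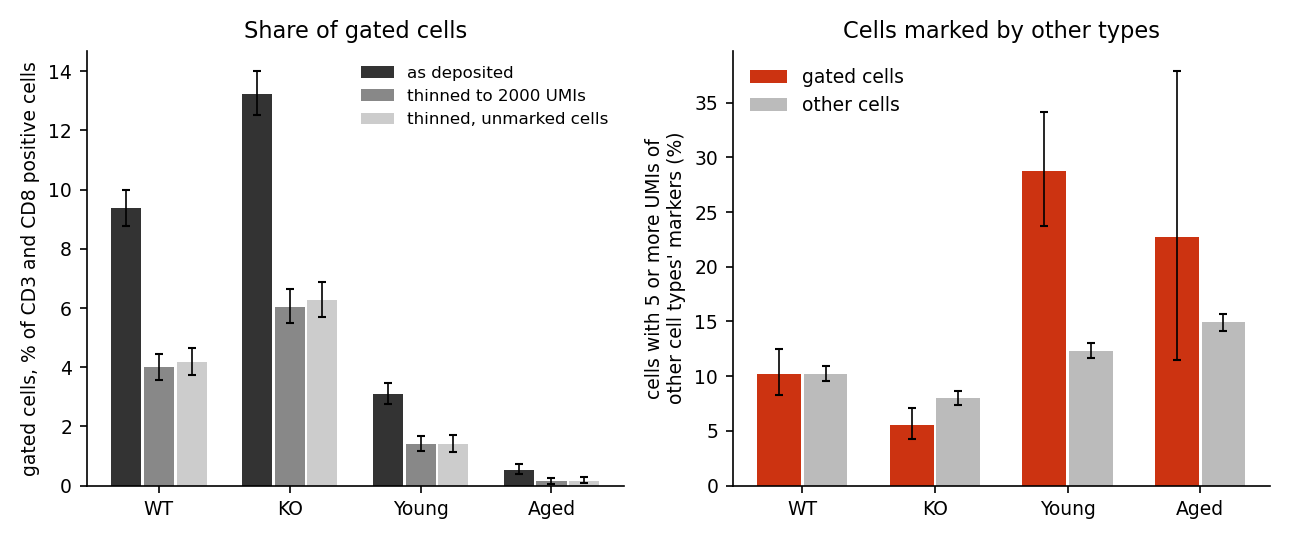
Left, gated cells as a percentage of CD3 and CD8 positive cells in each library, as deposited, after thinning and after thinning without cells marked by other types (bars, with exact 95% binomial intervals). Right, the percentage of gated and other cells with 5 or more UMIs of other cell types' markers, where gated cells of Young stand at 28.7% and the other cells at 12.3%.

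Ifitm1 was detected more often in cells with Itgae than without. After thinning the shares were 39.5% and 19.4% in WT, and 53.2% and 30.7% in KO. They were 47.1% and 16.8% in Young, and 25.9% and 6.36% in Aged. Barcodes with stromal or tumour markers and no CD3 UMI were also examined. After thinning, Itgae was detected in 0 of 125 in WT, 0 of 21 in KO, 0 of 145 in Young and 0 of 125 in Aged. Their median depth before thinning was 21037 to 39786 UMIs, and unthinned Itgae was found in 0% to 3.17% of them. These barcodes lack CD3 UMIs by choice, and thinning discards most of their UMIs. They therefore cannot measure the background of free T cell RNA, and single Itgae UMIs have no check here.

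Many gated cells stood at the limit, with a single UMI of Itgae in 404 of the WT, 439 of the KO, 156 of the Young and 32 of the Aged gated cells. The median Ifitm1 count was 29 UMIs in WT, 30 in KO, 23 in Young and 19 in Aged gated cells. Just outside, 21 cells in WT, 38 in KO, 14 in Young and 1 in Aged failed with exactly 2 UMIs of Gzma.

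Gated cells were deeper than the other cells, with median totals of 7237 against 6262 UMIs in WT, 7588 against 6761.5 in KO, 7224 against 4450 in Young and 7329.5 against 5763 in Aged. Whole libraries ran from 68017515 to 85401443 UMIs, and 145 cell barcodes were shared by Young and Aged and 20 by WT and KO. The 8 T cell markers (such as Cd3e, Trac and Lck) hold 3 CD3 genes of the gate, so T cell identity has no independent check in their sum. In CPM, a gene's UMIs scaled to the total of its cell set, they summed to 5409 in gated and 6872 in other cells in WT, 6184 and 6745 in KO, 2943 and 4516 in Young, and 3290.3 and 4846 in Aged. The sum was below that of the other cells in every library, and of the 5 markers outside the gate 0 were called higher and 1 lower. Markers of other cell types moved with the gate as well. The 14 dendritic cell markers summed to 15611 CPM in gated and 2676 in other cells in Young, and to 8596 and 763 in Aged. In WT they summed to 475 and 199 CPM, and in KO to 449 and 191. The 8 tumour or epithelial markers summed to 761 and 296 CPM in WT, 523 and 67.5 in KO, 359 and 185 in Young, and 77.2 and 48.8 in Aged. Fibroblast markers summed to 1054 and 178 CPM in WT, but to 2.27 and 17.8 in Aged. Not every type rose, and B or plasma cell markers summed lower in gated cells in every library. As background, cross-presenting dendritic cells also carry CD103.

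Cells with 5 or more UMIs over the markers of 8 other cell types, Plac8 and Ccr2 left out, are called marked. They made up 86 gated cells in WT (10.2%), 60 in KO (5.56%), 87 in Young (28.7%) and 10 in Aged (22.7%). The shares of the other cells were 10.2%, 7.99%, 12.3% and 14.9%. Dendritic markers led in 76 of the marked gated cells of Young and 8 of those of Aged, against 24 in WT and 36 in KO. Median totals of the marked gated cells were 16213 to 21998.5 UMIs, against 5975.5 to 7405 for the unmarked ones. No doublet caller was run.

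Differences are therefore given first with all cells, as designed, and then without marked cells. This removal, its limit of 5 UMIs and the exception for Plac8 and Ccr2 were chosen after the data had been seen and after other marker limits had been looked at, because the planned limit of 2 UMIs takes away 71.3% to 84.1% of the gated cells. The unmarked gated cells numbered 754 in WT, 1019 in KO, 216 in Young and 34 in Aged. In them the dendritic markers summed to 24.3 to 63.6 CPM, against 24.9 to 65.9 CPM in unmarked other cells, low sums that the removal itself fixes.

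With all cells, 422 of 13538 genes (3.12%) were called higher in gated than in other cells and 264 (1.95%) lower, at an adjusted p under 0.05 in edgeR's quasi-likelihood test with Benjamini-Hochberg adjustment and the library as a block. When the other cells were matched to the gated ones on depth, 64 were higher and 31 lower. Lower calls numbered 165 without WT, 154 without Young and 103 without Aged. The largest higher calls were mostly genes of dendritic and other myeloid cells. H2-Ab1, a class II antigen presentation gene, stood at 100.8 CPM in gated and 32.1 in other cells in WT, 86.4 and 32.4 in KO, 3234 and 549.5 in Young, and 1573 and 150.4 in Aged (log2 difference 2.24, SE 0.30, adjusted p = 0.00883). Xcr1, a chemokine receptor of cross-presenting dendritic cells, was also higher in all 4 libraries (2.31, SE 0.38, adjusted p = 0.0162). Plbd1, Wdfy4, Dnase1l3, Mpeg1, Tnfaip2, Plet1, Csf3, H2-Aa, H2-Eb1 and H2-DMb1 complete the 12 largest among genes with 1 sign in all 4 libraries and a mean of at least 20 CPM in a cell set. In unmarked cells none of these 12 genes was called: 8 were too low to be tested, and H2-Aa was at -0.48, H2-Ab1 at -0.10, H2-Eb1 at -0.39 and H2-DMb1 at 1.41 (adjusted p = 0.167).

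Without marked cells, 499 of 11979 genes (4.17%) were higher and 495 (4.13%) lower, more than in the fit as designed. With the planned limit of 2 UMIs the counts were 195 and 225. Of the higher calls 88 were shared, which is 20.9% of those with all cells and 17.6% of those without marked cells. Of the lower calls 205 were shared, or 77.7% and 41.4%. With unmarked cells matched on depth as well, 458 of 9613 genes (4.76%) were higher and 275 (2.86%) lower, and 365 of the 499 higher calls (73.1%) and 233 of the 495 lower calls (47.1%) remained. Without marked cells and without Aged, 457 of 11964 genes (3.82%) were higher and 411 (3.44%) lower. Differences below are log2 (gated minus other). Values per library are CPM of unmarked cells, chosen after the data had been seen, unless all cells are named. Those of Aged come from 34 gated cells, so a value of a few CPM there is very few UMIs. Each p rests on the spread between these 4 libraries, which come from 2 unlike experiments. It also rests on variance estimates that the test shares across genes, so a small p does not come from these 4 libraries alone. In summed UMIs, fewer expressing cells and less RNA per cell cannot be told apart.

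The gate genes and their companions come first, as a description. Itgae stood at 268, 279, 248 and 175 CPM in gated and 59.2, 51.7, 11.2 and 2.75 CPM in other cells, in the order WT, KO, Young, Aged. Ifitm1 stood at 5183, 4816, 5649 and 4156 CPM, against 728, 1242, 837 and 311 CPM. Levels of both were high in every gated set, which the gate fixes. Ifitm2 stood at 1505, 1440.2, 1489 and 1340.3 CPM, against 386, 462, 275 and 150.4 CPM. Itgb1, the integrin beta 1 chain, stood at 546, 663, 475 and 497 CPM, against 308, 403, 247 and 155 CPM. Both companions were above the other cells in each library, and gated and other cells did not overlap.

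Ifitm3, the third neighbour, was higher in gated cells. It stood at 587 CPM in gated and 246 in other cells in WT, 493 and 259.7 in KO, 756 and 229.6 in Young, and 724 and 127 in Aged (with all cells 1.44, SE 0.16, adjusted p = 0.00492; without marked cells 1.51, SE 0.13, adjusted p = 3.71e-08). Gated and other cells did not overlap across libraries. Ifitm10, the other family member tested, was not called (with all cells -0.44, adjusted p = 0.287; without marked cells -0.086, adjusted p = 0.808).

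Type I interferon response genes were not higher along with them. Of the list, with all cells 0 were higher and 8 lower of 39 tested, and without marked cells 0 were higher and 19 lower of 39. Without marked cells the list had a median difference of -0.24 against -0.015 over all genes. With unmarked cells matched on depth, 1 was higher and 4 lower. Ifit1bl1, an interferon-induced gene and the lowest of the list with all cells, stood at 26.3 CPM in gated and 35.2 in other cells in WT, 19.7 and 28.7 in KO, 22 and 27.9 in Young, and 15.9 and 33 in Aged (with all cells -0.66, SE 0.11, adjusted p = 0.0172; without marked cells -0.43, SE 0.082, adjusted p = 0.00107). Every gated value was below every value of the other cells, with that of Aged resting on few UMIs.

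Among adhesion genes, Itgb7, the partner chain of integrin alpha E, was higher. It stood at 229 CPM in gated and 137 in other cells in WT, 273 and 149 in KO, 519 and 292 in Young, and 434 and 209 in Aged (with all cells 0.58, SE 0.10, adjusted p = 0.0186; without marked cells 0.89, SE 0.058, adjusted p = 5.98e-10). Cdh1, which encodes E-cadherin, the ligand of that integrin, stood at 88.2 CPM in gated and 47.6 in other cells in WT, 67.5 and 32.0 in KO, 37.1 and 23.7 in Young, and 27.8 and 21.3 in Aged (with all cells 0.69, SE 0.15, adjusted p = 0.0429; without marked cells 0.98, SE 0.075, adjusted p = 5.98e-09). Both were higher in each library, and both overlap across libraries.

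Itga1, the collagen-binding integrin alpha 1 (CD49a), was called without marked cells only. It stood at 78.1 CPM in gated and 46.4 in other cells in WT, 81.1 and 51.1 in KO, 20.6 and 15.4 in Young, and 15.9 and 18.1 in Aged (with all cells 0.44, SE 0.14, adjusted p = 0.116; without marked cells 0.72, SE 0.073, adjusted p = 4.38e-07). Aged was the library in which gated cells did not have more. That value rests on few UMIs, with Itga1 detected unthinned in 11.8% of 34 cells, so its side there is uncertain. Itga4, the alpha 4 integrin that guides entry into inflamed tissue, stood at 52.6 CPM in gated and 147 in other cells in WT, 35.3 and 119 in KO, 16.5 and 43.8 in Young, and 59.7 and 164 in Aged (with all cells -1.09, SE 0.26, adjusted p = 0.0522; without marked cells -1.54, SE 0.077, adjusted p = 2.82e-11). Gated cells had less in each library, but with all cells the difference missed the threshold. Of integrins besides Itgae and Itgb1, with all cells 4 were higher and 0 lower of 12 tested, and without marked cells 4 were higher and 2 lower of 10.

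Of genes known to be raised in resident cells, with all cells 5 were higher and 0 lower of 30 tested, and without marked cells 12 were higher and 1 lower of 30. The medians were 0.0015 and 0.091, against -0.046 and -0.015 over all genes. Against unmarked cells with Itgae and no Ifitm1, under the same Gzma and Foxp3 limits, 3 were higher and 2 lower of 29. The median there was -0.034, and 1.85% of all genes were higher and 1.83% lower. Against such cells with Ifitm1 and no Itgae, 10 were higher and 1 lower of 29. The median there was 0.20, and 1.52% of all genes were higher and 1.66% lower. Against all other cells, Gpr55, a lipid receptor of intestinal lymphocytes, had the largest difference without marked cells. It stood at 60.8 CPM in gated and 29.5 in other cells in WT, 88.4 and 45.1 in KO, 44.0 and 25.5 in Young, and 55.7 and 14.5 in Aged (with all cells 0.88, SE 0.10, adjusted p = 0.00568; without marked cells 1.04, SE 0.078, adjusted p = 5.08e-09). Cd69, which retains T cells by opposing S1PR1, was called without marked cells only (with all cells 0.058, SE 0.11, adjusted p = 0.819; without marked cells 0.36, SE 0.06, adjusted p = 0.000295).

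Most regulators of residency that were followed did not pass the test. These were Cxcr6, a chemokine receptor of resident cells (with all cells -0.29, adjusted p = 0.105; without marked cells 0.046, adjusted p = 0.761), and Runx3, a factor of CD8 residency (with all cells -0.058, adjusted p = 0.744; without marked cells -0.051, adjusted p = 0.77). Prdm1, which encodes Blimp-1, did not pass either (with all cells -0.27, adjusted p = 0.23; without marked cells -0.17, adjusted p = 0.412). Zfp683, which encodes Hobit, passed without marked cells only (with all cells 0.34, adjusted p = 0.5; without marked cells 0.88, adjusted p = 0.0403). Its levels in gated cells were 0.999, 1.68, 19.2 and 3.98 CPM, against 0.731, 0.886, 9.32 and 5.52 CPM in other cells. Aged ran the other way, on very few UMIs.

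Genes of egress and circulation went both ways: with all cells 0 were higher and 5 lower of 21 tested, and without marked cells 7 were higher and 6 lower of 21. Klrg1, a marker of short-lived effector cells, had the lowest difference, on few gated UMIs (17 in WT, 12 in KO and fewer in Aged, unmarked). It stood at 2.83 CPM in gated and 10.4 in other cells in WT, 1.35 and 7.21 in KO, 3.44 and 27.3 in Young, and 3.98 and 39.1 in Aged (with all cells -2.43, SE 0.18, adjusted p = 0.0011; without marked cells -2.29, SE 0.21, adjusted p = 6.24e-08). Every gated value was below every value of the other cells.

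S1pr1, the egress receptor itself, was not lower. It stood at 132 CPM in gated and 107 in other cells in WT, 125 and 106 in KO, 155 and 108 in Young, and 139 and 85.7 in Aged (with all cells 0.14, SE 0.092, adjusted p = 0.417; without marked cells 0.40, SE 0.066, adjusted p = 0.000239). Klf2, its driver, stood at 300.1 CPM in gated and 287 in other cells in WT, 181 and 161 in KO, 528 and 404 in Young, and 672 and 329 in Aged (with all cells 0.26, SE 0.19, adjusted p = 0.487; without marked cells 0.37, SE 0.089, adjusted p = 0.00822). Both were higher in all 4 libraries without marked cells, and neither was called with all cells. Il7r, the interleukin 7 receptor of long-lived T cells, had a log2 difference of 0.43 with all cells (adjusted p = 0.124) and 0.71 without marked cells (adjusted p = 0.000349). Ccr7, the lymph node homing receptor, stood at 82.2 CPM in gated and 242 in other cells in WT, 117 and 233 in KO, 94.2 and 95.1 in Young, and 55.7 and 73.3 in Aged (with all cells -0.82, SE 0.25, adjusted p = 0.0983; without marked cells -0.95, SE 0.13, adjusted p = 3.86e-05). The gap was widest in WT and KO, and in Young the values were nearly equal. Since S1pr1 and Klf2 were not lower, the cells are called by their gate and not resident. Tcf7, a factor of stem-like and memory T cells, was not called (with all cells -0.049, adjusted p = 0.895; without marked cells 0.19, adjusted p = 0.127).

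**Figure D2:**
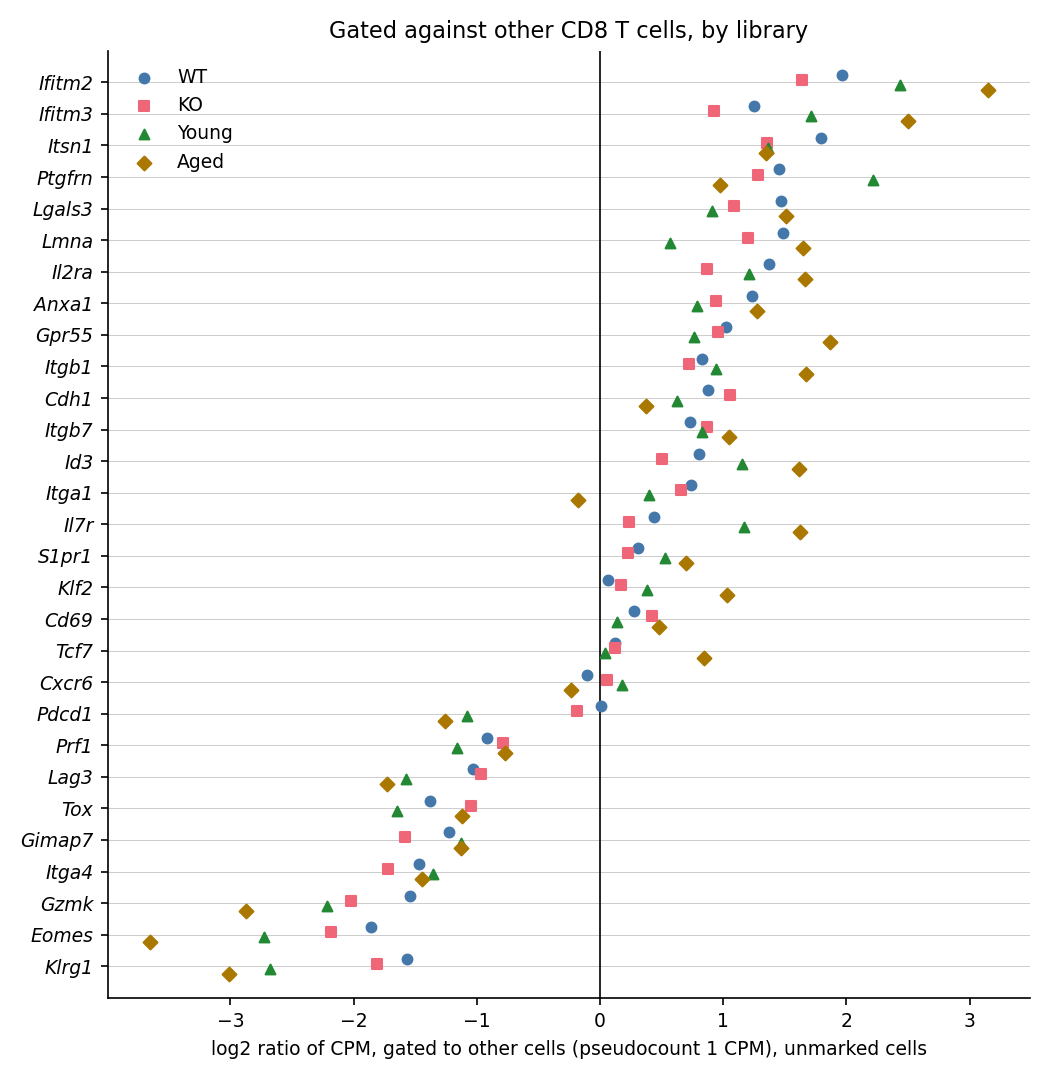
Log2 ratio of CPM (pseudocount 1 CPM) in gated to other cells, both unmarked, for named genes; each symbol is 1 library and no error is drawn. Klrg1, Eomes, Gzmk and Itga4 lie left of 0 in all 4 libraries, and Ifitm2, Ifitm3 and Lgals3 right of it. Itga1 lies left of 0 in Aged, where it rests on few UMIs.

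Many genes of S100 proteins, annexins and the cytoskeleton were higher: with all cells 8 were higher and 0 lower of 20 tested, and without marked cells 17 were higher and 0 lower of 20. Lgals3, which encodes the lectin galectin-3, stood at 1048 CPM in gated and 379 in other cells in WT, 1127 and 531 in KO, 1163 and 618 in Young, and 1396 and 489.9 in Aged (with all cells 1.07, SE 0.069, adjusted p = 0.000661; without marked cells 1.27, SE 0.078, adjusted p = 2.28e-10). Gated and other cells did not overlap across libraries. Anxa1, a phospholipid-binding annexin, had a log2 difference of 1.32 with all cells (adjusted p = 0.00379) and 1.09 without marked cells (adjusted p = 5.08e-09).

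Other large differences lay outside the residency lists. Itsn1, an endocytic scaffold, stood at 24.1 CPM in gated and 6.25 in other cells in WT, 26.8 and 9.89 in KO, 36.4 and 13.5 in Young, and 35.8 and 13.5 in Aged (with all cells 1.15, SE 0.16, adjusted p = 0.0093; without marked cells 1.64, SE 0.12, adjusted p = 3.54e-09). Fxyd4, a regulator of the sodium pump, stood at 12.8 CPM in gated and 3.39 in other cells in WT, 26.1 and 6.75 in KO, 17.2 and 2.34 in Young, and 23.9 and 0.981 in Aged (with all cells 2.04, SE 0.30, adjusted p = 0.0105; without marked cells 2.18, SE 0.19, adjusted p = 4.32e-08). Gated and other cells did not overlap across libraries for either gene. Ptgfrn, a partner of tetraspanins, was higher in both fits (with all cells 1.27, adjusted p = 0.00436; without marked cells 1.63, adjusted p = 4.61e-08), as was Lmna, which encodes lamin A/C (with all cells 1.08, adjusted p = 0.0011; without marked cells 1.24, adjusted p = 2.92e-08). St8sia1, a ganglioside sialyltransferase, was higher too (with all cells 1.08, adjusted p = 0.0134; without marked cells 1.25, adjusted p = 4.68e-07).

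Il2ra, the high-affinity interleukin 2 receptor chain (CD25), was higher in gated cells, from which Foxp3 was barred. It stood at 111 CPM in gated and 42.4 in other cells in WT, 131 and 71.6 in KO, 101.0 and 43.2 in Young, and 127 and 39.5 in Aged (with all cells 0.59, SE 0.089, adjusted p = 0.0122; without marked cells 1.21, SE 0.085, adjusted p = 1.62e-09). Gated and other cells did not overlap across libraries. Cd44, an adhesion receptor of activated T cells, was higher (with all cells 0.40, adjusted p = 0.0243; without marked cells 0.48, adjusted p = 3.21e-06), and Tnfrsf4, the costimulatory receptor OX40, lower (with all cells -1.11, adjusted p = 0.00198; without marked cells -0.76, adjusted p = 3.37e-07). Of costimulation and activation receptors, with all cells 2 were higher and 6 lower of 17 tested, and without marked cells 6 were higher and 3 lower of 17.

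Cytotoxic genes were lower in part. Gzmk, a granzyme of transitional effector cells, stood at 56.8 CPM in gated and 167 in other cells in WT, 31.0 and 128 in KO, 68.0 and 319.8 in Young, and 59.7 and 443 in Aged (with all cells -1.93, SE 0.10, adjusted p = 0.00048; without marked cells -1.91, SE 0.10, adjusted p = 2.82e-11). Every gated value was below every value of the other cells. Prf1, the pore-forming perforin, stood at 49.1 CPM in gated and 93.6 in other cells in WT, 64.1 and 111 in KO, 25.4 and 58.2 in Young, and 75.6 and 129 in Aged (with all cells -1.19, SE 0.12, adjusted p = 0.0034; without marked cells -0.84, SE 0.072, adjusted p = 3.45e-08). It was lower in each library, with overlap across libraries. Gzmd, Gzme and Gzmf, clustered granzymes, were lower in both fits, and reads of these near-identical genes may have been split among them, so their single values are uncertain.

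Gzmb, the main cytotoxic granzyme, was called lower with all cells (-0.48, SE 0.072, adjusted p = 0.012) but not without marked cells (-0.11, SE 0.062, adjusted p = 0.329). Ccl5, a chemokine of effector CD8 T cells, was lower in both fits (with all cells -0.73, SE 0.10, adjusted p = 0.00938; without marked cells -0.41, SE 0.06, adjusted p = 4.83e-05). Of cytotoxic genes, with all cells 0 were higher and 8 lower of 15 tested, and without marked cells 2 were higher and 7 lower of 15. The gate limits Gzma, and the other unmarked cells were therefore also held to the same Gzma and Foxp3 limits. In that fit, where 4.37% of all genes were higher and 4.26% lower, 2 cytotoxic genes were higher and 7 lower.

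Eomes, a T-box factor of effector and exhausted cells, stood at 11.3 CPM in gated and 43.8 in other cells in WT, 7.96 and 39.7 in KO, 4.81 and 37.5 in Young, and 3.98 and 61.7 in Aged (with all cells -2.13, SE 0.20, adjusted p = 0.00255; without marked cells -2.18, SE 0.11, adjusted p = 2.82e-11). Tox, which drives the exhausted state, stood at 27.1 CPM in gated and 72.4 in other cells in WT, 36.0 and 75.3 in KO, 21.3 and 69.0 in Young, and 63.6 and 139 in Aged (with all cells -1.36, SE 0.10, adjusted p = 0.0011; without marked cells -1.22, SE 0.085, adjusted p = 1.61e-09). Both were lower in all 4 libraries, and for both every gated value was below every value of the other cells. The Aged gated value of Eomes rests on very few UMIs. Of transcription factors of exhaustion, with all cells 0 were higher and 8 lower of 15 tested, and without marked cells 2 were higher and 8 lower of 15.

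Among inhibitory receptors, Lag3 stood at 72.2 CPM in gated and 149 in other cells in WT, 65.7 and 129 in KO, 15.8 and 49.2 in Young, and 51.7 and 174 in Aged (with all cells -1.34, SE 0.16, adjusted p = 0.00637; without marked cells -1.04, SE 0.081, adjusted p = 8.5e-09). It was lower in each library. Pdcd1, which encodes PD-1, missed the threshold (with all cells -0.62, adjusted p = 0.0748; without marked cells -0.37, adjusted p = 0.0668), as did Havcr2, which encodes TIM-3 (with all cells 0.07, adjusted p = 0.941; without marked cells -0.21, adjusted p = 0.114). Over the list, with all cells 0 were higher and 4 lower of 15 tested, and without marked cells 1 was higher and 5 lower of 15.

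Penk, which encodes an opioid precursor, was lower in both fits (with all cells -2.32, adjusted p = 0.00546; without marked cells -2.60, adjusted p = 1.55e-10), as was Setbp1, a DNA-binding protein gene (with all cells -1.77, adjusted p = 0.00048; without marked cells -2.15, adjusted p = 2.11e-10). Gimap7, a lymphocyte GTPase, was lower too (with all cells -1.49, adjusted p = 0.00048; without marked cells -1.31, adjusted p = 2.47e-10). Of TGF-beta pathway and target genes, with all cells 2 were higher and 0 lower of 21 tested, and without marked cells 6 were higher and 1 lower of 18. Tgfbr1, a receptor chain, was not called (with all cells 0.29, adjusted p = 0.261; without marked cells 0.41, adjusted p = 0.0843), nor was Tgfbr2, the other chain (with all cells -0.14, adjusted p = 0.389; without marked cells 0.049, adjusted p = 0.733). Of S phase genes, with all cells 0 were higher and 0 lower of 20 tested, and without marked cells 0 were higher and 1 lower of 20. Of G2 and M phase genes, with all cells 0 were higher and 1 lower of 23 tested, and without marked cells 2 were higher and 1 lower of 23. The shares over all genes were 3.12% and 1.95% with all cells, and 4.17% and 4.13% without marked cells. Beside them, these counts are no result about the cell cycle lists. Mki67, a proliferation marker, was not called (with all cells 0.0057, adjusted p = 0.992; without marked cells 0.14, adjusted p = 0.51).

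**Figure D3:**
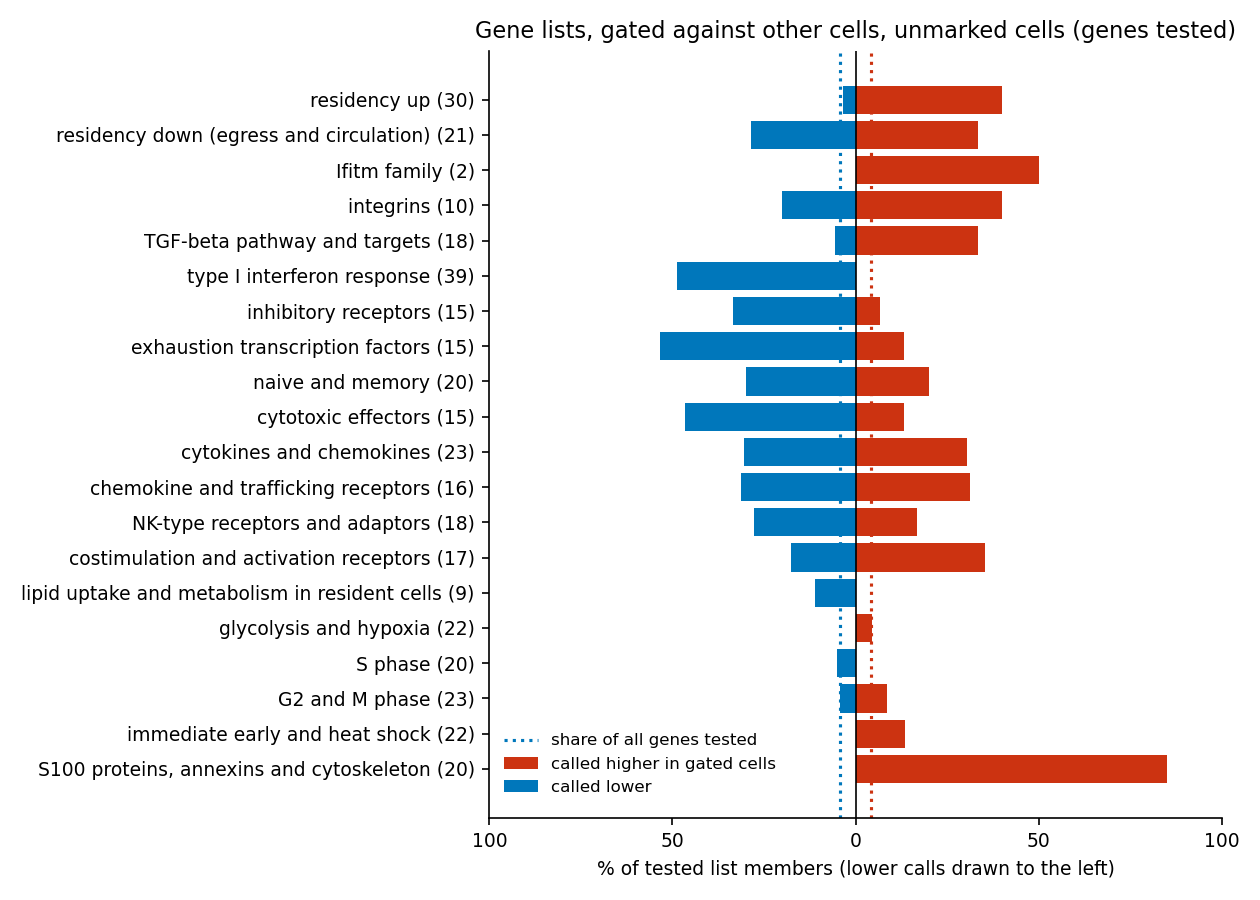
Percentage of tested genes of each list called higher or lower in gated than in other cells without marked cells; dotted lines give the share over all genes, 4.17% higher and 4.13% lower. The S100, annexin and cytoskeleton list has 17 of 20 higher and the interferon list 19 of 39 lower.

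Under the same Gzma and Foxp3 limits, gated cells were also set against cells with one of the 2 genes. Against 2482 cells with Itgae and no Ifitm1, 167 of 10882 genes (1.53%) were higher and 49 (0.45%) lower. These counts were 37 and 3 without WT and 83 and 26 without Young, and the lower calls 11 without KO and 29 without Aged. Without marked cells 178 of 9629 (1.85%) were higher and 176 (1.83%) lower. Against 4833 cells with Ifitm1 and no Itgae, edgeR called 0 of 11767 genes higher (0%) and 0 lower (0%) with all cells, with 667 genes at an unadjusted p under 0.05, while DESeq2 called 32 and 37. Without marked cells edgeR called 156 of 10239 (1.52%) higher and 170 (1.66%) lower.

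In unmarked cells, Ifitm3 was higher in gated cells than in either set. It stood at 164 and 516 CPM in the Itgae-only and the Ifitm1-only cells in WT, 154 and 411 in KO, 255 and 632 in Young, and 145 and 620.0 in Aged. The differences of gated cells were 1.84 (adjusted p = 1.65e-07) and 0.25 (adjusted p = 0.00512). In the same order Lgals3 had 1.68 (adjusted p = 1.65e-06) and 0.43 (adjusted p = 5.59e-05), and Il2ra 1.65 (adjusted p = 1.44e-06) and 0.57 (adjusted p = 9.53e-05). Itgb7 had 0.37 (adjusted p = 0.0638) from Itgae-only and 0.66 (adjusted p = 3.08e-06) from Ifitm1-only cells. Gzmk was lower than in both (-0.90, adjusted p = 0.00176, and -0.91, adjusted p = 1.01e-07). Whether the 2 differences of a gene differ from each other was not tested. Gated and Ifitm1-only cells were not equal in Ifitm1 itself, in the order WT, KO, Young, Aged. It stood at 5183, 4816, 5649 and 4156 CPM in gated cells, against 3025, 3020, 3931 and 3014 CPM in Ifitm1-only cells. What part this had in the differences from Ifitm1-only cells was not tested. These contrasts of unmarked cells were not matched on depth. Median UMIs in gated, Itgae-only and Ifitm1-only cells were 5975.5, 4328 and 4553.5 in Young, and 6646, 6023.5 and 6731 in Aged.

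**Figure D4:**
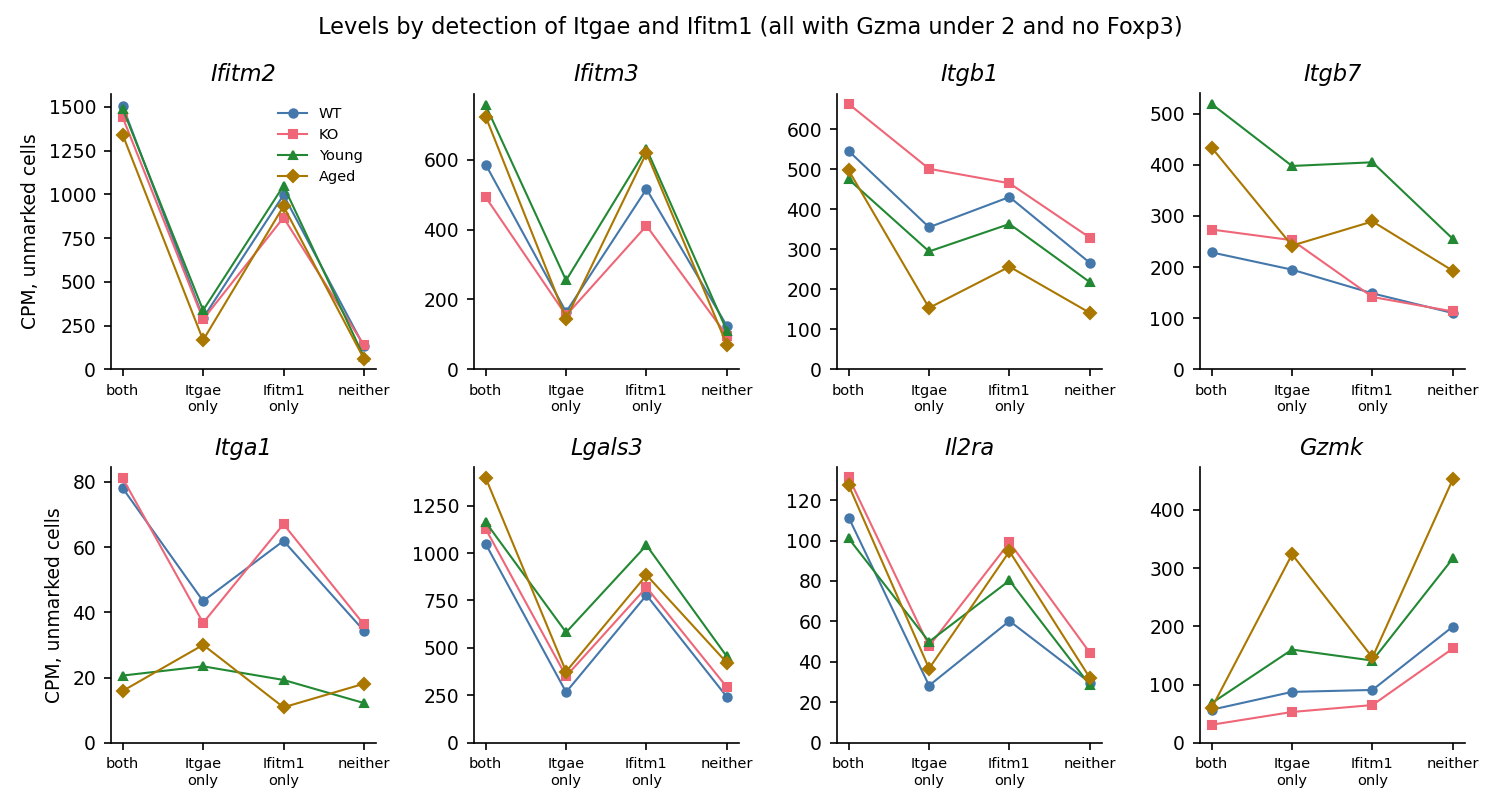
CPM of named genes in unmarked cells with both Itgae and Ifitm1, with Itgae only, with Ifitm1 only and with neither; each line is 1 library and only the order within a library is to be read. Ifitm3 in WT runs 587, 164, 516 and 124 CPM, and Gzmk in WT 56.8, 87.4, 90.7 and 199.6 CPM.

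Gated cells carried many T cell receptor beta V segments. Where a segment could be assigned, unmarked gated cells used 16 segments in WT (95 of 754 cells) and 19 in KO (180 of 1019). They used 20 in Young (199 of 216) and 11 in Aged (30 of 34). Most gated cells of WT and KO thus had no assigned segment. In WT the most frequent was Trbv19, in 16.8%, exact 95% interval 9.94 to 25.9, against 4.04%, exact 95% interval 3.05 to 5.24, in the other cells, where Trbv12-2 led with 18.3%, exact 95% interval 16.3 to 20.5. In KO the most frequent was Trbv29, in 18.3%, exact 95% interval 13 to 24.8, against 12.6%, exact 95% interval 10.8 to 14.6, in the other cells, where Trbv13-1 led with 15.8%, exact 95% interval 13.8 to 18.0. In Young the most frequent was Trbv1, in 16.6%, exact 95% interval 11.7 to 22.5, against 3.27%, exact 95% interval 2.88 to 3.70, in the other cells, where Trbv26 led with 18.8%, exact 95% interval 18.0 to 19.7. In Aged the most frequent was Trbv12-1, in 40.0%, exact 95% interval 22.7 to 59.4, against 24.8%, exact 95% interval 23.8 to 25.9, in the other cells, where it led too. Among assigned cells the leading segment thus differed between gated and other cells in all libraries but Aged. The lead was narrow in WT, with 16 cells of Trbv19 against 14 of Trbv29. In KO it was 33 cells of Trbv29 against 29 of Trbv12-1, and the Trbv29 intervals of gated and other cells overlap. These shares come from 1 library each, with no test.

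For KO against WT the targeted gene comes first. In the order KO and WT, which holds for all pairs of values here, Bfar stood at 21.4 and 30.4 CPM with a ratio of 0.703 (0.587 to 0.841) in all gated cells, and at 20.7 and 30.3 CPM with a ratio of 0.685 (0.555 to 0.845) in unmarked ones, beside a ratio of 0.706 in unmarked other cells. Intervals are exact 95% counting intervals. Since the labels do not say which part of the gene was deleted, this does not check the label. With all gated cells, 112 of 7633 measured genes (1.47%) were at least 1.5 times higher in KO and 623 (8.16%) at least 1.5 times lower. The most extreme ratios were at genes of other cell types, such as Krt14, a keratin (97.1 CPM in KO and 1.55 in WT), and Col3a1, a fibroblast collagen (1.52 and 311 CPM). Fibroblast markers summed to 68.2 CPM in KO and 1054 in WT gated cells, and mast cell or basophil markers to 150 in KO and 1236 in WT. Without marked cells the counts were 64 (0.908%) and 59 (0.837%) of 7046 genes.

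Areg, a growth factor made by tissue T cells, stood at 39.2 and 12.7 CPM with a ratio of 3.10 (2.51 to 3.85) in all gated cells, and at 43.5 and 15.1 CPM with a ratio of 2.87 (2.28 to 3.65) in unmarked ones, beside a ratio of 2.30 in unmarked other cells. Arrdc3, an arrestin-related adaptor, stood at 46.4 and 18.4 CPM with a ratio of 2.52 (2.11 to 3.02) in all gated cells, and at 49.8 and 22.3 CPM with a ratio of 2.23 (1.84 to 2.73) in unmarked ones, beside a ratio of 2.06 in unmarked other cells. Ccl1, a chemokine, stood at 183 and 98.2 CPM with a ratio of 1.86 (1.72 to 2.02) in all gated cells, and at 204 and 90.2 CPM with a ratio of 2.27 (2.06 to 2.50) in unmarked ones, beside a ratio of 3.10 in unmarked other cells. All 3 were above WT in both cell sets. Fcer1g, a signalling adaptor of innate-like cells, stood at 17.6 and 121 CPM with a ratio of 0.145 (0.123 to 0.170) in all gated cells, and at 3.25 and 26.3 CPM with a ratio of 0.124 (0.0802 to 0.185) in unmarked ones, beside a ratio of 0.588 in unmarked other cells. Gzmb stood at 528 and 739 CPM with a ratio of 0.714 (0.689 to 0.740) in all gated cells, and at 561 and 865 CPM with a ratio of 0.648 (0.623 to 0.674) in unmarked ones, beside a ratio of 0.569 in unmarked other cells, and Klf2 at 167 and 237 CPM with a ratio of 0.706 (0.662 to 0.752) in all gated cells, and at 181 and 300.1 CPM with a ratio of 0.605 (0.565 to 0.647) in unmarked ones, beside a ratio of 0.560 in unmarked other cells. Each of these was below WT in both cell sets.

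With all gated cells the KO to WT ratio was 1.08 (1.05 to 1.11) for Ifitm2, 0.574 (0.555 to 0.594) for Ifitm3, 1.44 (1.39 to 1.5) for Itgb1, 1.42 (1.33 to 1.51) for Itgb7 and 1.16 (1.04 to 1.30) for Itga1. Without marked cells it was 0.957 (0.932 to 0.983), 0.841 (0.804 to 0.879), 1.22 (1.16 to 1.27), 1.20 (1.12 to 1.28) and 1.04 (0.923 to 1.17) in the same order, so that Ifitm2 changed its side of 1. Of 25 measured residency genes 3 were at least 1.5 times higher and 0 lower with all gated cells. Without marked cells 0 and 0 of 24 were, which at shares of 0.908% and 0.837% over all genes is no result about the list.

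For Aged against Young, 1027 of 8229 genes (12.5%) were at least 1.5 times higher and 1221 (14.8%) lower with all gated cells, and 754 (10.8%) and 1157 (16.6%) of 6973 without marked cells. These counts rest on 44 Aged cells, 34 of them unmarked. In the order Aged and Young, Ctla4, an inhibitory receptor, stood at 211 and 71.5 CPM with a ratio of 2.95 (2.30 to 3.76) in all gated cells, and at 306 and 108 CPM with a ratio of 2.84 (2.13 to 3.75) in unmarked ones, beside a ratio of 2.67 in unmarked other cells. Lag3 stood at 47.7 and 14.1 CPM with a ratio of 3.37 (1.92 to 5.73) in all gated cells, and at 51.7 and 15.8 CPM with a ratio of 3.27 (1.52 to 6.73) in unmarked ones, beside a ratio of 3.53 in unmarked other cells. Pdcd1 stood at 206 and 115 CPM with a ratio of 1.79 (1.41 to 2.26) in all gated cells, and at 203 and 113 CPM with a ratio of 1.80 (1.29 to 2.48) in unmarked ones, beside a ratio of 2.03 in unmarked other cells. These 3 were above Young in both cell sets. Havcr2 had a ratio of 0.900 (0.668 to 1.19) with all gated cells but 2.14 (1.32 to 3.37) without marked cells.

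Ifng, the effector cytokine, stood at 315 and 119 CPM with a ratio of 2.64 (2.16 to 3.21) in all gated cells, and at 509 and 164 CPM with a ratio of 3.11 (2.49 to 3.87) in unmarked ones, beside a ratio of 1.18 in unmarked other cells. Ccl3, a chemokine of activated T cells, stood at 90.8 and 14.4 CPM with a ratio of 6.30 (4.05 to 9.74) in all gated cells, and at 119 and 7.56 CPM with a ratio of 15.8 (7.69 to 34.9) in unmarked ones, beside a ratio of 3.39 in unmarked other cells. Gzmb stood at 1577 and 636 CPM with a ratio of 2.48 (2.27 to 2.70) in all gated cells, and at 1933 and 1116 CPM with a ratio of 1.73 (1.56 to 1.92) in unmarked ones, beside a ratio of 1.76 in unmarked other cells. All 3 were above Young in both cell sets. The Ccl3 ratios rest on 40 and 50 UMIs with all gated cells and on 30 and 11 without marked ones. Of 23 measured G2 and M phase genes 8 were at least 1.5 times lower in Aged and 0 higher with all gated cells. Over all genes 14.8% were lower and 12.5% higher. Without marked cells 15 were lower and 0 higher of 20, beside 16.6% and 10.8% over all genes. In unmarked other cells 0 were lower and 1 higher of 21, beside 107 and 207 of 7749 genes. After thinning, Mki67 was detected in 8.82% (1.86 to 23.7) of 34 unmarked gated cells in Aged. In Young it was detected in 11.6% (7.67 to 16.7) of 215. Whether these genes move together in the same few cells was not tested. With all gated cells the ratio was 1.09 (0.991 to 1.19) for Ifitm2, 0.640 (0.567 to 0.721) for Ifitm3 and 1.21 (1.02 to 1.43) for Itgb1. Without marked cells it was 0.900 (0.800 to 1.01), 0.957 (0.814 to 1.12) and 1.05 (0.858 to 1.27), with intervals that include 1. Differences between ratios of gated and other cells were not tested.

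**Figure D5:**
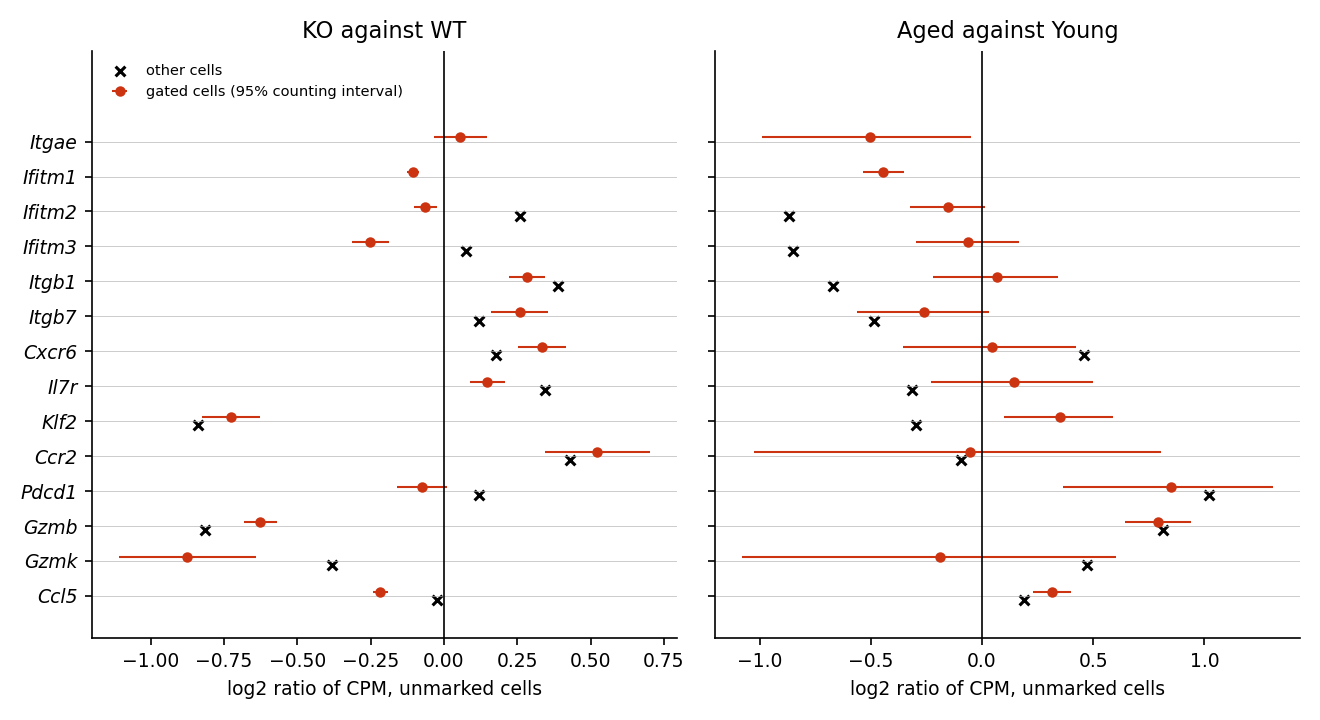
Log2 ratio of CPM for KO to WT (left) and Aged to Young (right) in unmarked gated cells (circles, with exact 95% counting intervals) and in unmarked other cells (crosses). Klf2 and Gzmb lie left of 0 in both cell sets for KO to WT, and Pdcd1 and Gzmb right of it for Aged to Young.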

How the data were processed

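UMI counts per gene and barcode were used as deposited. Cell Ranger 6.1.1 wrote WT and KO and 7.1.0 Young and Aged, per the file headers, whereas Cell Ranger 6.0.0, Seurat 3.2.3 and mm10 stand in the submitters' processing notes. UMIs were summed per library and cell set and tested with edgeR 4.0.16 (R 4.3.3), using TMM factors, filterByExpr, the quasi-likelihood test with library as a block and Benjamini-Hochberg adjustment over all tested genes. DESeq2 1.42.0 was an alternative, and the scripts were tested on simulated data. Shares and ratios carry exact 95% binomial intervals (scipy 1.17.1), which cover counting error only, since UMIs of 1 library share their animals. For KO against WT and Aged against Young, a gene counted as measured if the pair of libraries together held 20 or more UMIs and 1 of them reached 10 CPM.

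The members and the gene lists were chosen with earlier results of these data known. Named genes were the gate genes with Ifitm2 and Itgb1, the 12 largest and 12 smallest called differences with 1 sign in all libraries and a mean of at least 20 CPM in a cell set, the highest and lowest member of each list, a set of genes of residency, egress, effector and inhibitory function with Bfar, and the 6 largest and 6 smallest ratios per condition pair with at least 50 UMIs and 20 CPM. Receptor segments and mitochondrial, ribosomal, haemoglobin, sex-linked and unnamed genes were left out of the rules by size. The report describes only some of the genes so named, and which of them was decided after their values were seen. The removal of marked cells, the use of the naming rule on unmarked cells and the test between experiments were added after the data had been seen. Hobit was listed under its human symbol and read as Zfp683. Mx1, Mx2 and Rigi were not analysed here.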

Additional observations from a re-analysis of the deposited data

Results flagged for a closer look

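The difference between gated and other cells was itself compared between the transfer experiment (Young and Aged) and the WT and KO experiment, with an interaction term in edgeR's quasi-likelihood test and Benjamini-Hochberg adjustment over all genes. This test was added after the data had been seen, it rests on 2 libraries per experiment, and the experiments also differed in kit, host and source of the T cells, which cannot be told apart. With all cells, 143 of 13538 genes had a larger and 25 a smaller log2 difference in the transfer experiment. Without marked cells these were 28 and 57 of 11979. The genes below are those followed in the text or chosen by the rule for named genes, and each value is the log2 difference in the transfer experiment minus that in WT and KO.

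With all cells, the difference was larger in the transfer experiment for Ahr 2.25 (adjusted p = 0.000664), Atf3 1.64 (adjusted p = 0.00177), Btla 2.12 (adjusted p = 0.00749), H2-Aa 1.75 (adjusted p = 0.00818), H2-Ab1 1.5 (adjusted p = 0.0111), H2-Eb1 1.67 (adjusted p = 0.0117) and Havcr2 1.38 (adjusted p = 0.0449). It was smaller for Ccl1 -1.40 (adjusted p = 0.0294), Gzmc -3.57 (adjusted p = 0.0385), Pdcd1 -0.91 (adjusted p = 0.00972) and Xcl1 -1.21 (adjusted p = 0.025). Class II genes H2-Aa, H2-Ab1 and H2-Eb1 lie among the first group, beside the dendritic cell markers of the Young and Aged gated cells, whose part in these values was not tested.

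Without marked cells, the difference was larger in the transfer experiment for Ahr 1.09 (adjusted p = 0.0025), Ccr7 1.15 (adjusted p = 7.11e-06), Ctla4 0.57 (adjusted p = 0.00471), Fam241a 1.05 (adjusted p = 0.000139), Ifitm3 0.83 (adjusted p = 6.96e-07), Il7r 0.93 (adjusted p = 7.05e-08), Klf2 0.43 (adjusted p = 0.0196) and St8sia1 0.91 (adjusted p = 0.00196). It was smaller for Ccl1 -2.87 (adjusted p = 2.72e-05), Fcer1g -5.06 (adjusted p = 1.05e-05), Gzmc -1.60 (adjusted p = 0.00589), Hspa1a -1.01 (adjusted p = 0.0292), Lmna -0.50 (adjusted p = 0.0494), Pdcd1 -1.07 (adjusted p = 1.48e-08), Rgs16 -0.90 (adjusted p = 1.31e-06), Skil -0.66 (adjusted p = 0.000389) and Xcl1 -0.54 (adjusted p = 0.0325). For Fcer1g, WT and KO themselves ran opposite ways. It stood at 26.3 CPM in unmarked gated and 7.98 in unmarked other cells in WT, but at 3.25 and 4.69 in KO. Genes found in both fits, with 1 sign in both, were Ahr, Ccl1, Gzmc, Pdcd1 and Xcl1. Ahr encodes a ligand-activated factor that sustains resident lymphocytes, and Pdcd1 encodes PD-1.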

How the results depend on the processing

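Counts of genes higher and lower in gated than in other cells (422 and 264) moved as follows. Removing the filter on low counts gave 760 and 495, matching on depth 64 and 31, removing cells with at least 2 UMIs of other types' markers 195 and 225, requiring at least 2 UMIs of Itgae and Ifitm1 63 and 57, and removing cells with Mki67 or Top2a 113 and 106. Dropping the Gzma limit gave 259 higher, DESeq2 779 higher, WT and KO alone 747 higher and Young and Aged alone 638 higher. Lower calls numbered 405 without the 8% of cells with the most UMIs, 495 without marked cells, 506 with the Gzma limit on both sides as well, and 411 without marked cells and Aged. Leaving out each library gave 291 to 363 higher and 103 to 238 lower.

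Against Itgae-only cells (167 and 49), DESeq2 gave 252 and 131, no filter 631 and 217, depth matching 306 and 102, removal of marked cells 176 lower, and leaving out each library 37 to 125 higher and 3 to 29 lower. Against Ifitm1-only cells (0 and 0), DESeq2 gave 32 and 37, no filter 41 and 43, depth matching 1 lower, removal of marked cells 156 and 170, and leaving out each library 0 to 9 higher and 0 to 9 lower.

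KO against WT (112 and 623) gave 424 and 2104 without the filter, 47 and 363 with a pseudocount of 10 CPM, 196 higher with TMM factors, 383 and 391 without gated cells with at least 2 such UMIs, 250 higher after thinning and 64 and 59 without marked cells. Aged against Young (1027 and 1221) gave 2426 and 4203 without the filter, 502 and 780 with 10 CPM, 651 higher after thinning and 739 lower with no Gzma limit.

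Shares in the order WT, KO, Young and Aged were 4.0, 6.05, 1.40 and 0.145% thinned to 2000 UMIs, 4.18, 6.25, 1.40 and 0.171% thinned without marked cells, 5.52, 7.84, 2.00 and 0.295% thinned to 3000 UMIs, 4.32, 6.88, 1.26 and 0.109% with at least 2 UMIs of both genes, and 22.9, 23.1, 6.60 and 1.99% with Itgae alone. With no Gzma limit they were 11.6% in WT, 16.2% in KO and 4.03% in Young, and without marked cells 2.53% in Young.

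Some log2 differences of single genes changed sign. With all cells they were Ccr2 -0.0069, Smad7 -0.036, Ccl1 0.28, Ly6c2 0.029, Mt1 0.34, Mt2 0.70, Cd69 0.059, Gzmb -0.48, Ccl3 -0.79, Fam241a -0.45, Itga1 0.44, Klf2 0.26, Hspa1a 0.24; H2-Aa, H2-Ab1 and H2-Eb1 were positive. With DESeq2, Ccr2 0.0015 and Hspa1a -0.42. With at least 2 UMIs of both gate genes, Ccl1 -0.050, Ccr2 0.086, Ly6c2 -0.14 and Smad7 0.001. With WT and KO alone, Ccr2 0.32 and Smad7 0.088. With Young and Aged alone, Ccl1 -0.82, Cd69 -0.11, Fam241a 0.0012, Itga1 -0.018 and Ly6c2 -0.17. With no TMM factors, Ccr2 0.019. With no filter, Cd69 -0.018 and Ly6c2 -0.052. With no Gzma limit, Ccr2 0.11. With the Gzma and Foxp3 limits on both sides, Ccr2 0.19. With depth matching, Ccr2 0.44, Mt1 -0.052 and Smad7 0.30. With marked cells removed, Ccr2 0.49, H2-Aa -0.48, H2-Ab1 -0.10, H2-Eb1 -0.39, Mt1 -0.91, Mt2 -1.46 and Smad7 0.22. With marked cells and Aged removed, Ccr2 0.50, H2-Aa -0.44, H2-Ab1 -0.049, H2-Eb1 -0.47, Mt1 -1.07, Mt2 -1.47 and Smad7 0.20. With marked cells removed and depth matched, Ccl3 0.23, Ccr2 0.63, Mt1 -0.95, Mt2 -1.49 and Smad7 0.27. With marked cells removed and both limits on both sides, Ccr2 0.63, Gzmb 0.17, H2-Aa -0.46, H2-Ab1 -0.13, H2-Eb1 -0.42, Mt1 -0.90, Mt2 -1.48 and Smad7 0.21. With cells with at least 2 UMIs of other types' markers removed, Ccr2 0.39, Gzmb 0.18, Mt1 -0.85, Mt2 -0.55 and Smad7 0.11. With cells with Mki67 or Top2a removed, Ccr2 0.36 and Smad7 0.12. With the 8% deepest cells removed, Ccr2 0.45, Mt1 -0.98, Mt2 -1.51 and Smad7 0.19. Leaving out each library gave Ccl1 -0.04 to 0.60 (changed without WT), Ccr2 -0.19 to 0.26 (changed without Young and Aged), Cd69 -0.056 to 0.21 (changed without KO), Klf2 -0.011 to 0.40 (changed without Aged), Ly6c2 -0.042 to 0.18 (changed without WT and KO), Mt1 -0.022 to 0.60 (changed without Young) and Smad7 -0.10 to 0.079 (changed without Young).

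The cause of these changes was not tested. No paired analysis was possible because each group had 1 library, and in the comparisons of gated with other cells the library was the block already. Every setting named as the removal of marked cells was chosen after seeing the data. The Aged values rest on 44 gated cells, 34 of them unmarked.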
